A study of Mus musculus with 15 samples.

Results

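The genes described here were the cytochrome P450s of families 1 to 4, the families whose enzymes oxidise drugs, foreign chemicals, steroids and fatty acids. Members were all protein-coding genes of the count table whose symbol started with Cyp1a, Cyp1b, Cyp2, Cyp3a or Cyp4 followed by a letter, with pseudogenes and P450 families of higher number left out. This gave 81 of the 55450 genes in the table: 3 of family 1, 49 of family 2, 9 of family 3 and 20 of family 4. Expression was not used to choose them. Of the 81 members, 59 had enough reads to be tested and 22 did not, and 10 of these 22 had no read in any mouse (Cyp2b19, Cyp2b23, Cyp2c66, Cyp2j7, Cyp2j12, Cyp2j13, Cyp2t4, Cyp2w1, Cyp4a29 and Cyp4a30b). The other 12 reached at most 21 counts in any mouse, except Cyp4a12a and Cyp4a12b, whose highest counts, 33 and 90, were both in O5.

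The data are liver mRNA of 15 female C57BL/6 mice in 3 groups of 5, with 1 library per mouse. Adult mice (A1 to A5) were labelled 6 months old, and Old (O1 to O5) and PDX (P1 to P5) mice 22 months old. By the study these were ages at the start, and the livers were taken at the end, when the mice were older. Adult and Old mice were gavaged daily with corn oil alone, and PDX mice with protectin DX, a lipid mediator made from an omega-3 fatty acid, at 30 ng per g of body weight in the same oil. Gavage lasted 9 weeks by the treatment protocol and 8 weeks by the design text. No transgene, deletion or batch is labelled.

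P450s are heme proteins of the endoplasmic reticulum that insert an oxygen atom into their substrates with electrons passed on by P450 oxidoreductase. In the liver they are made by hepatocytes, many of them most strongly in the cells around the central vein, and several are switched on by ligand-sensing receptors: AhR for Cyp1, CAR and PXR for Cyp2b, Cyp2c and Cyp3a, and PPAR alpha for Cyp4a. In mice many Cyp2 and Cyp3a genes also differ between the sexes, a difference set by the pattern of growth hormone release.

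Libraries held 22424383 to 36070835 counted read pairs. The transcript of Xist, which is made from the inactive X chromosome of females, was at 191 to 378 CPM (counts scaled to library size) in all 15 mice, and none of 4 Y-linked genes exceeded 0.593 CPM in any mouse. Hepatocyte marker genes summed to 144217 ± 5479 CPM in Adult, 152925 ± 54302 in Old and 166734 ± 17790 in PDX livers. These are means and SD, and single mice ranged from 90286 to 224726 CPM. Of the 10 markers 1 rose and 0 fell between Old and Adult in the test below, where 4.71% and 2.07% of all genes did. Albumin alone was lowest in O5 (34724 CPM) and O2 (65645 CPM). O2 and O5 stood apart from the other Old mice for many members, and values without them are given where they change a result. O5 had lost the most weight (a body weight change of -3.55%, by the study a weekly average) and had the highest frailty index (0.56). O2 had instead gained the most weight (3.07% on the same measure) and had the lowest frailty index of the Old mice (0.11). It nevertheless met 3 frailty criteria, as did O3, against 1 in O1 and 4 in O4 and O5, and the study counts 3 or more as frail. The paper proposes that O2 and O5 were extreme in frailty, as the lowest treadmill distance and wheel activity were also among their values. The tissue is whole liver, so fewer cells of a type and less RNA per cell cannot be told apart in any of these values.

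Together the members took a smaller share of the liver's mRNA in both older groups. They made up 2.68% ± 0.157 of all counts in Adult, 1.64% ± 0.377 in Old and 1.70% ± 0.262 in PDX livers (SD, n = 5 each). The ranges were 2.54% to 2.88% in Adult, 1.22% to 2.10% in Old and 1.39% to 2.10% in PDX mice. No mouse of either older group thus reached the lowest Adult mouse, and O5 and O2 had the lowest shares of all. Outside the 10 genes with the most counts, none of them a P450, the mean shares were 3.36%, 2.15% and 2.28% in Adult, Old and PDX livers.

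**Figure D1:**
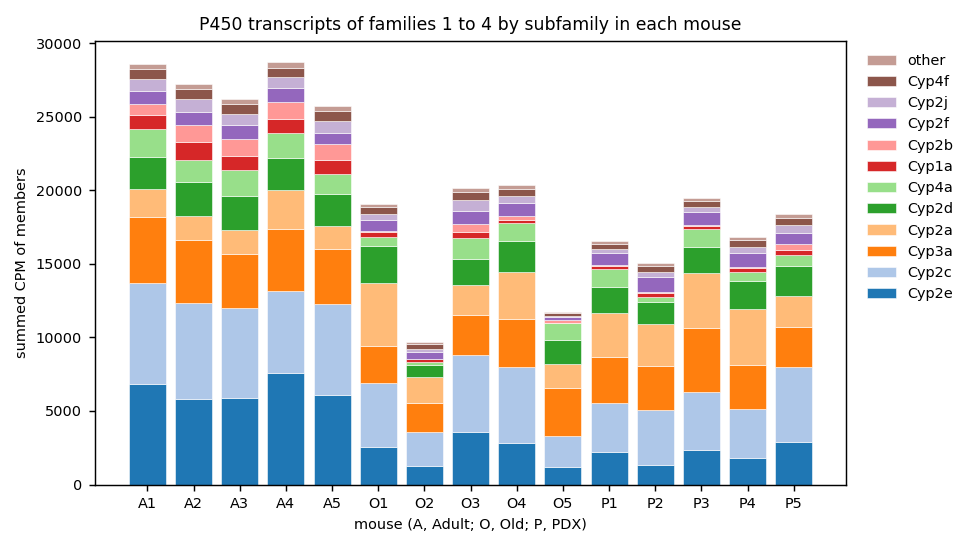
Summed CPM of the members in each mouse (y axis), stacked by subfamily, for 5 Adult (A), 5 Old (O) and 5 PDX (P) mice on the x axis. Adult bars end between 25736 and 28736 CPM and every bar of the older groups ends at or below 20354 CPM, with the shortest for O2 (9724 CPM).

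Per length of transcript (RPKM, the CPM per kilobase of exon), Cyp2e1, which oxidises ethanol, acetone and paracetamol, was the most abundant member in every group. Its level was 2982 ± 353 RPKM in Adult, 1051 ± 479 in Old and 985 ± 277 in PDX livers. The order below it differed between groups. In Adult livers Cyp2d26 (684 ± 34.8 RPKM), Cyp2c29 (557 ± 64) and Cyp3a11 (557 ± 86.7) followed, and the last pair did not differ beyond their spread. In PDX livers the steroid hydroxylase Cyp2a4 stood at 976 ± 349 RPKM, within the spread of Cyp2e1, and Cyp3a44 (389 ± 112) and Cyp3a16 (348 ± 93.6) were among the 8 most abundant members. In Old livers Cyp2a4 was also second, at 772 ± 612 RPKM.

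Between Old and Adult livers, 10 of 59 tested members passed the test: 3 rose (Cyp1b1, Cyp4f16 and Cyp4f18) and 7 fell (Cyp1a2, Cyp2d22, Cyp2e1, Cyp2j6, Cyp2j9, Cyp4f15 and Cyp4v3). Each gene was tested by edgeR (quasi-likelihood), p-values were adjusted over all 15808 genes by Benjamini-Hochberg and the threshold was 0.05, and over all these genes 6.78% passed, 4.71% as higher and 2.07% as lower in Old. Among the members 41 log2 fold changes lay below 0 and 18 above, with a median of -0.47, against a median of 0.07 over all genes tested. All 5 Old mice lay below all 5 Adult mice for 18 members and above them for 3, where 4.48% and 3.65% of all genes did so, 8.13% in all. At an unadjusted p under 0.05 the members numbered 25, against 27.7% of all genes.

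The number that passed depended on the mice included. Without O5 it was 18 of 59 (8 higher and 10 lower), where 13.2% of all genes passed, and the 10 above were among the 18. The 8 gained were Cyp2a4, Cyp2c40, Cyp2d9, Cyp2d40, Cyp2g1, Cyp3a25, Cyp3a41b and Cyp3a44. Without O2 and O5 it was 16 of 61, where 7.12% of all genes passed, and Cyp2j6 was lost. Leaving out any 1 Adult mouse left 3 or 4, where only 0.97% to 1.51% of all genes passed. Each of these fits ended the calls of Cyp1a2, Cyp2j6, Cyp4f16, Cyp4f18 and Cyp4v3. Cyp4f15 was lost without A2, A3, A4 or A5, Cyp2j9 without A1, A2, A3 or A5, and Cyp2e1 without A4. Cyp1b1 and Cyp2d22 passed whichever of the 15 mice was left out. A fit of the 10 Adult and Old mice alone left Cyp1b1 and Cyp2j9, where 0.698% of all genes passed.

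**Figure D2:**
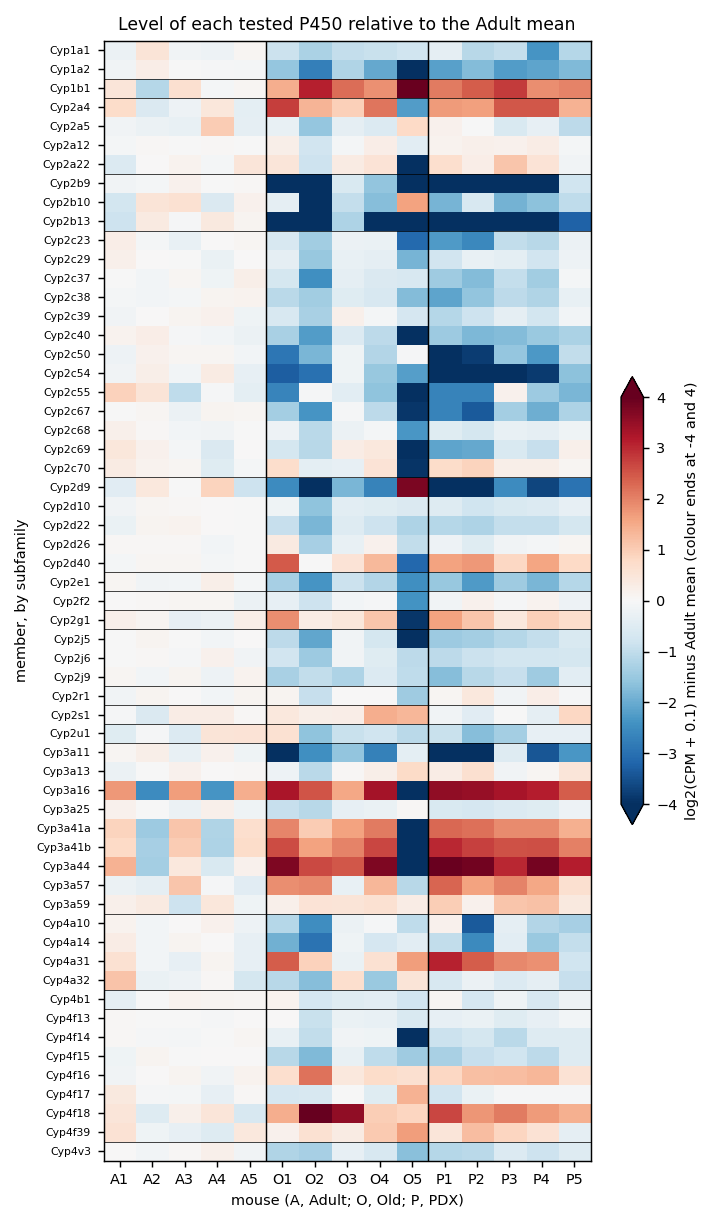
Level of each of the 59 tested members (rows, by subfamily) in each mouse (columns), as log2(CPM + 0.1) minus the mean of the 5 Adult mice, with colours ending at -4 and 4. Blue rows run through both older groups for Cyp1a2, Cyp2e1, Cyp2b9 and Cyp2b13, and red rows for Cyp1b1, Cyp4f16 and Cyp4f18. O5 departs from the other Old mice for Cyp2d9, Cyp2c40, Cyp3a16, Cyp3a41a, Cyp3a41b and Cyp3a44.

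In family 1, Cyp1a2 (ENSMUSG00000032310, chr9:57676937-57683703, minus strand of GRCm38) fell and Cyp1b1 (ENSMUSG00000024087, chr17:79701537-79715061, minus strand) rose. Cyp1a2, which is made almost only in liver and oxidises caffeine and aromatic amines, was at 917, 1198, 1001, 974 and 948 CPM in A1 to A5 and at 344, 151, 431, 244 and 25.1 CPM in O1 to O5. The groups did not overlap, and O5 was lowest by far. The mean was 4.22-fold lower (1008 ± 111 against 239 ± 159 CPM; log2 fold change -2.08 ± 0.48 (SE), edgeR adjusted p = 0.0262), and without O2 and O5 the log2 fold change was -1.56 (edgeR adjusted p = 0.000733). The call was lost without any 1 of the Adult mice, with an edgeR adjusted p of up to 0.0633. Its neighbour Cyp1a1, which also handles aromatic hydrocarbons, was scarce at 1.12 to 1.94 CPM in Adult and 0.497 to 0.721 CPM in Old mice. These groups did not overlap either, but the difference missed the threshold (log2 fold change -1.08 ± 0.34, edgeR adjusted p = 0.0629).

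Cyp1b1, an AhR-inducible enzyme that is made mainly outside hepatocytes, was at 0.646, 0.141, 0.73, 0.403 and 0.459 CPM in Adult and at 1.36, 4.45, 2.37, 1.78 and 8.04 CPM in Old mice. Every Old mouse exceeded every Adult mouse, and O5 and O2 were highest (7.55-fold higher mean; log2 fold change 2.92 ± 0.51, edgeR adjusted p = 0.00897). Without O2 and O5 the log2 fold change was 1.96 (edgeR adjusted p = 0.0103). Stellate cell markers were also higher: 2 of 6, Col1a1 and Des, rose, where 4.71% of all genes did. The summed level of the 6 was 283 to 321 CPM in Adult and 318 to 826 CPM in Old mice, with O5 (826 CPM) and O2 (613 CPM) highest and no marker at 0. Between PDX and Adult, where Cyp1b1 also rose, 0 of the 6 markers passed edgeR's test. At an unadjusted p under 0.05 there were 2 (20.6% of all genes), and 1 passed by DESeq2 (7.68%). Their summed level was 308 to 589 CPM in PDX mice. The part of stellate cells in the Cyp1b1 result was not tested. The gene of the receptor itself, Ahr, had a log2 fold change of -0.10 ± 0.23 (edgeR adjusted p = 0.809). Of the 3 tested AhR targets outside the P450s (Tiparp, Nqo1 and Ugt1a6a) 0 passed edgeR's test. At an unadjusted p under 0.05 there were 2 (27.7% of all genes), and 0 passed by DESeq2 (14.1%).

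In family 2 the most abundant member, Cyp2e1 (ENSMUSG00000025479, chr7:140763739-140774987, plus strand), fell. It was at 6823, 5811, 5882, 7592 and 6069 CPM in Adult and at 2551, 1235, 3542, 2833 and 1178 CPM in Old mice. The highest Old mouse, O3, lay well below the lowest Adult mouse (2.84-fold lower mean; log2 fold change -1.50 ± 0.31, edgeR adjusted p = 0.0184). Cyp2e1 alone made 21.4% to 26.4% of all member counts in Adult, 10.0% to 17.5% in Old and 8.83% to 15.8% in PDX livers.

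Cyp2d22, a mouse relative of the human drug-oxidising enzyme CYP2D6, was at 297, 381, 390, 360 and 346 CPM in Adult and at 187, 99.5, 247, 199 and 149 CPM in Old mice. The gene lies at chr15:82370527-82380260 on the minus strand. The groups did not overlap (2.01-fold lower mean; log2 fold change -1.01 ± 0.20, edgeR adjusted p = 0.0157). It was the only one of the 5 tested Cyp2d members to pass. Cyp2d26, the most abundant of them, differed by less than the spread between mice (1225 ± 62.3 against 1006 ± 461 CPM; edgeR adjusted p = 0.513).

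The Cyp2j enzymes, which oxidise arachidonic acid to epoxides, were lower in Old mice for all 3 tested members, and 2 fell. Cyp2j9 was at 8.09 to 10.5 CPM in Adult and at 3.74 to 6.46 CPM in Old mice (log2 fold change -1.01 ± 0.22, edgeR adjusted p = 0.0242). Cyp2j6 was at 69.8 to 85.2 CPM in Adult and at 27.9 to 68.8 CPM in Old mice (log2 fold change -0.72 ± 0.19, edgeR adjusted p = 0.0365). Neither pair of ranges overlapped, although the Cyp2j6 ranges nearly met. Without O2 and O5 the Cyp2j6 log2 fold change was -0.44 (edgeR adjusted p = 0.0562), and without 1 mouse its edgeR adjusted p reached 0.0873. Cyp2j5, the most abundant of the 3, was at 671 to 781 CPM in Adult and at 353, 172, 663, 441 and 18.3 CPM in O1 to O5, so its Old mice were all lower but widely spread (log2 fold change -1.14 ± 0.55, edgeR adjusted p = 0.192).

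**Figure D3:**
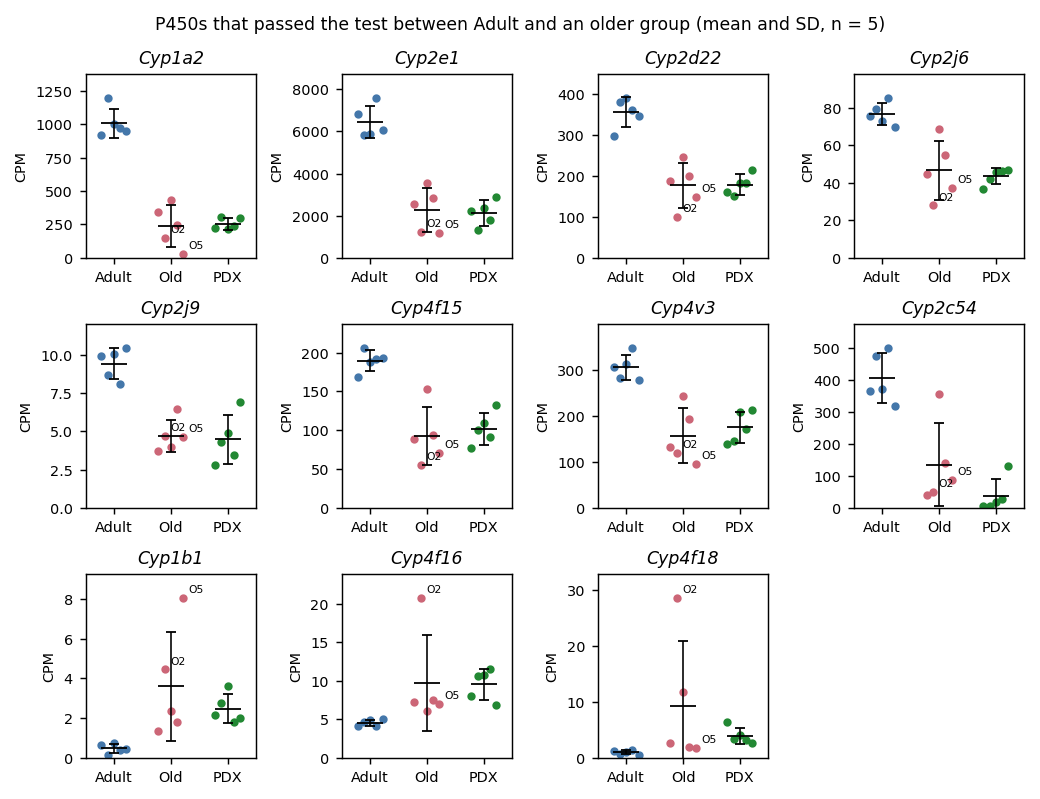
CPM of the 11 members that passed between Adult and Old or between Adult and PDX (y axes start at 0), with 1 point per mouse and the mean and SD of the 5 mice of each group on the x axis; O2 and O5 are marked. For Cyp1a2, Cyp2e1, Cyp2d22, Cyp2j6, Cyp2j9, Cyp4f15 and Cyp4v3 every Old point lies below every Adult point, and the high points of Cyp4f16 and Cyp4f18 belong to O2.

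Cyp2c is the largest subfamily, with 15 members that hydroxylate drugs, steroids and arachidonic acid. All 13 tested members had log2 fold changes below 0 between Old and Adult (median -0.83). None passed: 0 by edgeR's test, 4 at an unadjusted p under 0.05 (27.7% of all genes) and 1 by DESeq2 (14.1%). Their summed level was 6248 ± 493 CPM in Adult, 3835 ± 1525 in Old and 3870 ± 727 in PDX livers. Cyp2c29, Cyp2c37, Cyp2c38 and Cyp2c40, all named after their values were seen, were lower in all Old than in all Adult mice. Cyp2c40 passed without O5 (edgeR adjusted p = 0.015). With all mice Cyp2c38 came closest to the threshold, at 111 to 131 CPM in Adult and 35.5 to 84.4 CPM in Old mice (2.01-fold lower mean, edgeR adjusted p = 0.0501).

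The neighbours Cyp2c50 and Cyp2c54 differed between single mice. Cyp2c54 was at 366, 475, 371, 500 and 320 CPM in Adult and at 40.7, 50.3, 355, 140 and 87.5 CPM in Old mice, so that O3 lay within the Adult range and the other 4 below it (log2 fold change -1.59 ± 0.79, edgeR adjusted p = 0.205). Cyp2c50 was at 770 to 986 CPM in Adult and at 119, 249, 777, 388 and 858 CPM in Old mice, with O3 and O5 within the Adult range. Cyp2c70, a bile acid hydroxylase that makes muricholic acids in mice, was at 1087, 968, 930, 631 and 828 CPM in Adult and at 1419, 661, 701, 1278 and 57.6 CPM in Old mice. O1 and O4 exceeded all Adult mice and O5 was far below all others, and without O5 the log2 fold change turned from -0.11 to 0.19 (edgeR adjusted p = 0.911 and 0.658).

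Of 8 pericentral P450s (Cyp1a2, Cyp2a5, Cyp2c29, Cyp2c37, Cyp2c50, Cyp2c54, Cyp2e1 and Cyp3a11), 2 fell, where 2.07% of all genes did. All 8 had log2 fold changes below 0. Their median log2 fold change was -1.20 and their summed level 14740 ± 1213 CPM in Adult, 5945 ± 1945 in Old and 5316 ± 1480 in PDX livers. Cyp2f2, a naphthalene-oxidising enzyme made around the portal vein, was at 907 ± 76.8 CPM in Adult and 624 ± 290 CPM in Old livers, and the difference did not pass (log2 fold change -0.54 ± 0.31, edgeR adjusted p = 0.268). Outside the P450s, 1 of 8 pericentral genes (Oat, an ornithine aminotransferase) and 2 of 9 periportal genes (Gls2 and Ass1, enzymes of glutamine and urea metabolism) fell. In these lists all 8 pericentral and 8 of 9 periportal genes had log2 fold changes below 0, with medians of -0.35 and -0.30. Lower levels were thus not particular to the pericentral lists. Glul, the marker of the innermost pericentral cells, did not pass (log2 fold change -0.49 ± 0.25, edgeR adjusted p = 0.216).

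Cyp2b9 and Cyp2b13 are female-biased steroid hydroxylases, and Cyp2b10 is the classic gene induced through CAR. The genes of Cyp2b9 (chr7:26173411-26210661) and Cyp2b13 (chr7:26061497-26096197) lie on the plus strand of GRCm38. Their start regions, 250 bases before to 50 after each start in the RefSeq table of GRCm38.p6, are shown because both genes were high or low in much the same mice: they differ at 2 positions, in capitals, and are 99.3% identical, while that of Cyp2b10 is 71.7% identical to either. The Cyp2b9 region is chr7:26173159-26173458 and that of Cyp2b13 chr7:26061245-26061544.
Cyp2b9: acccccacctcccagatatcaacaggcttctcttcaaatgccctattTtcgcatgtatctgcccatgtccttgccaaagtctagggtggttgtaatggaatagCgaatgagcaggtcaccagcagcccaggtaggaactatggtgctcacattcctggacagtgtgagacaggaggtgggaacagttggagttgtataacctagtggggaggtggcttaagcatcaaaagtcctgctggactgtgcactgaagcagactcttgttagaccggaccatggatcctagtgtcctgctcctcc
Cyp2b13: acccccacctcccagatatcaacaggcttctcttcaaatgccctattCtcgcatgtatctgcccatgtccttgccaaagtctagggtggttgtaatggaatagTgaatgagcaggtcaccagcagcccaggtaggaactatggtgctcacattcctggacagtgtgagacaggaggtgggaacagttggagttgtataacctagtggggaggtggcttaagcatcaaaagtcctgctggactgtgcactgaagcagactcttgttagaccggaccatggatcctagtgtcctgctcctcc

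Cyp2b9 was at 515, 545, 638, 567 and 592 CPM in Adult mice, at 23.7, 1.81, 373, 189 and 1.88 CPM in O1 to O5, and at 0.0789, 0.281, 29.9, 17.8 and 329 CPM in P1 to P5. Every older mouse lay below every Adult mouse, over a range from near the Adult level in O3 and P5 to a few reads in P1 and P2. Cyp2b13 was at 209, 481, 359, 494 and 406 CPM in Adult, at 2.59, 2.14, 157, 11.8 and 0.18 CPM in Old and at 0.355, 0.12, 4.83, 2.86 and 40.0 CPM in PDX mice. O3 and P5 were again the highest of their groups, and no older mouse reached the Adult range. With this spread neither gene passed between Old and Adult (log2 fold changes -2.28 ± 1.56 and -3.49 ± 1.49, edgeR adjusted p = 0.361 and 0.144). Reads can be shared between paralogs, and 11.2% of the 50-base windows of Cyp2b9 and 27.3% of those of Cyp2b13 also occurred in another gene.

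Cyp2b10 did not follow this pair. It was at 46.3, 111, 119, 51.9 and 87.7 CPM in Adult and at 60.1, 2.52, 39.6, 23.6 and 236 CPM in Old mice, so O2 was the lowest and O5 the highest of all 15 mice (log2 fold change -0.20 ± 0.72, edgeR adjusted p = 0.883). O5 was also high for the electron donor Por (2315 CPM, against 253 to 523 CPM in the other Old mice) and for Alas1, the first enzyme of heme synthesis (952 CPM, against 173 to 307 CPM). Without O2 the log2 fold change of Cyp2b10 was 0.11 and without O5 it was -1.41, so its direction changed with the mice included.

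Cyp2a4 and Cyp2a5 lie on the plus strand of chromosome 7 (chr7:26307169-26315088 and chr7:26835305-26843548). Cyp2a4 is a female-biased steroid 15-alpha-hydroxylase and Cyp2a5 a coumarin hydroxylase that is also induced in liver injury. Their start regions (chr7:26306942-26307241 and chr7:26835089-26835388, GRCm38.p6) are shown because the 2 genes differed in pattern although the regions are 97.7% identical, with 5 mismatches and 2 unpaired positions near the ends in capitals.
Cyp2a4: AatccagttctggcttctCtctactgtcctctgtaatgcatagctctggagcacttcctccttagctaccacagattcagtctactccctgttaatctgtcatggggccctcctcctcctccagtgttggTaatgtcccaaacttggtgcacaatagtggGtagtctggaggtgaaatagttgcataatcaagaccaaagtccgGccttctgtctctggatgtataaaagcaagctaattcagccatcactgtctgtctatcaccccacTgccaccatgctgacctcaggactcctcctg
Cyp2a5: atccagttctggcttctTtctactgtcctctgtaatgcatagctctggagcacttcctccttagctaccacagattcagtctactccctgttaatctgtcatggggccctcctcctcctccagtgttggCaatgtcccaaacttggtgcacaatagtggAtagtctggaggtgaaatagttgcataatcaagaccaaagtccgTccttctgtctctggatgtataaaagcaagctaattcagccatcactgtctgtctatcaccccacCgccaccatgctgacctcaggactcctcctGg

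Cyp2a4 was at 695, 282, 367, 575 and 319 CPM in Adult and at 2877, 1078, 818, 1847 and 88.7 CPM in Old mice. The 4 Old mice other than O5 exceeded all Adult mice, and O5 was the lowest of the 15. The difference missed the threshold (log2 fold change 1.58 ± 0.59, edgeR adjusted p = 0.101) and passed it without O5 (1.89, edgeR adjusted p = 0.0128). In PDX livers Cyp2a4 was at 1371, 1317, 2343, 2358 and 1092 CPM, above every Adult mouse. Cyp2a5, named after its values were seen, was at 494 to 1284 CPM in Adult and 216 to 1098 CPM in Old mice, and the groups overlapped (log2 fold change -0.31 ± 0.39, edgeR adjusted p = 0.642). Per length, the ratio of Cyp2a4 to Cyp2a5 was 0.534 to 1.45 in Adult mice, 1.99 to 6.61 in O1 to O4, 0.0964 in O5 and 2.31 to 6.76 in PDX mice. These ratios carry the uncertainty of shared reads, since 38.8% of the 50-base windows of Cyp2a4 and 37.0% of those of Cyp2a5 occur in another gene.

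**Figure D4:**
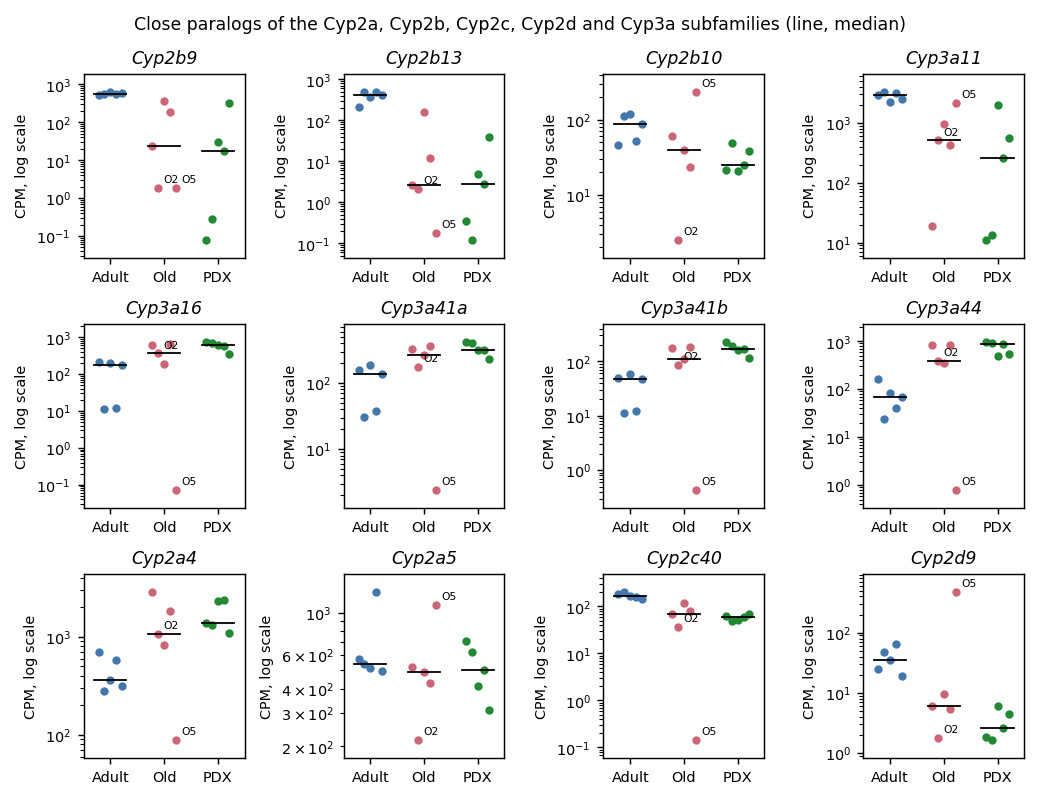
CPM of 12 members of the Cyp2a, Cyp2b, Cyp2c, Cyp2d and Cyp3a subfamilies on log y axes, with 1 point per mouse, the median of the 5 mice of each group as a line, and O2 and O5 marked. Cyp2b9 and Cyp2b13 are lower in every older mouse; Cyp3a41b, Cyp3a44 and Cyp2a4 are above all Adult mice in all older mice but O5, where Cyp2d9 and Cyp2b10 are at their highest, while Cyp3a16 in O3 and Cyp3a41a in O2 lie within the Adult range.

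The Cyp3a enzymes hydroxylate steroids, bile acids and many drugs. All 9 members were tested between Old and Adult, and 0 passed edgeR's test. At an unadjusted p under 0.05 there were 2 (27.7% of all genes), and 1 passed by DESeq2 (14.1%). Of their log2 fold changes 7 lay above 0 and 2 below, with a median of 1.05. The summed level was 4080 ± 376 CPM in Adult, 2748 ± 539 in Old and 3254 ± 625 in PDX livers. Behind this sum the members differed in opposite directions.

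Cyp3a11, the main PXR-inducible drug-oxidising enzyme, was at 2938, 3319, 2277, 3156 and 2487 CPM in Adult, at 19.4, 511, 949, 429 and 2150 CPM in Old and at 11.1, 13.3, 1977, 259 and 562 CPM in PDX mice. All older mice lay below all Adult mice. O5 and P3 were near the Adult range, and O1, P1 and P2 had only a trace of it. The difference between Old and Adult did not pass with this spread (log2 fold change -1.80 ± 1.14, edgeR adjusted p = 0.319).

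The neighbouring genes Cyp3a16, Cyp3a41a, Cyp3a41b and Cyp3a44, which are female-biased and whose values were seen before they were chosen for description, were higher in most older mice. Cyp3a44 was at 164, 24.3, 82.7, 40.4 and 70.0 CPM in Adult, at 824, 389, 352, 832 and 0.794 CPM in Old and at 970, 906, 500, 888 and 549 CPM in PDX mice. All PDX mice and 4 of 5 Old mice exceeded every Adult mouse, and O5 had almost none. Between Old and Adult it did not pass (log2 fold change 2.65 ± 0.93, edgeR adjusted p = 0.0845), and without O5 it passed (2.97, edgeR adjusted p = 0.00454).

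Cyp3a16 was at 215, 11.2, 203, 12.4 and 174 CPM in Adult mice, so A2 and A4 stood far below the others. The same pair of mice was lowest among Adults for Cyp3a41a (31.1 and 37.6 CPM against 136 to 186 CPM), Cyp3a41b (11.3 and 12.0 CPM against 47.0 to 57.5 CPM) and Cyp3a44. In Old mice Cyp3a16 was at 612, 364, 187, 640 and 0.0721 CPM and in PDX mice at 342 to 753 CPM. Most reads of Cyp3a41a and Cyp3a41b cannot be told apart, because 98.6% and 93.5% of their 50-base windows occur in another gene, mostly each other. Only uniquely mapped pairs were counted, so the levels of both rest on the few reads that differ and may be too low.

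Cyp3a44 (chr5:145773983-145805874) and Cyp3a11 (chr5:145854426-145879964) are neighbours on the minus strand. Per length, the ratio of Cyp3a44 to Cyp3a11 was 0.0190 to 0.145 in Adult mice, 110 in O1, 226 in P1, 177 in P2 and 0.657 in P3. In O5 the ratio was 0.000958, below all Adult mice. Their start regions (chr5:145805825-145806124 and chr5:145879805-145880104, GRCm38.p6) are shown because this ratio varied most between mice, and are 71.2% identical. Capitals mark the letters TATAAA, the forkhead motif TGTTTAC and the HNF4 motif CAAAGTCCA.
Cyp3a44: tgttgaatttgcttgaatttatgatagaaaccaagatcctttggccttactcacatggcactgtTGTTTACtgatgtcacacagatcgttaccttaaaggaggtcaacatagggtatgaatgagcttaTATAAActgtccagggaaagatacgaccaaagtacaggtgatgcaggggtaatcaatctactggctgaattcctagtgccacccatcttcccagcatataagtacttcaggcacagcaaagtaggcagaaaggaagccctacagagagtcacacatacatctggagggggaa
Cyp3a11: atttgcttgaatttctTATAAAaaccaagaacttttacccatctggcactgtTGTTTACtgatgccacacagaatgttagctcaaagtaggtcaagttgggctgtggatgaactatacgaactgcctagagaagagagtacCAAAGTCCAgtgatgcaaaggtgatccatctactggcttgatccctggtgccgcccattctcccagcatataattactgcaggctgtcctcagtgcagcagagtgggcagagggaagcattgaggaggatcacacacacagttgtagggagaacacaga

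Both regions hold TGTTTAC, at 186 bases before the start in Cyp3a44 and 198 in Cyp3a11, and only that of Cyp3a11 holds CAAAGTCCA. In the regions of Cyp3a16, Cyp3a41a and Cyp3a41b, which are 89.9% to 97.0% identical to each other, both motifs occurred. Promoter regions were at hand for 66 of the 81 members. Searched on both strands, TGTTTAC occurred in 9 of the 66 and in 3.66% of all 32544 regions, and CAAAGTCCA in 10 of the 66 and in 0.479% of all regions, 6 of the 10 in Cyp2c and 4 in Cyp3a genes. The letters TATAAA occurred in 28 of 66 against 13.6%, the C/EBP motif TTGCNNAA in 15 against 10.8%, the AhR core GCGTG in 14 against 32.6% and the STAT5 motif TTCNNNGAA in 4 against 8.33%. The direct repeat bound by PPAR alpha occurred in 0 of the 66 and in 0.0399% of all regions. At so low a rate a count of 0 in 66 regions is uninformative. The regions of Cyp4a10, Cyp4a14 and Cyp4a31 were not at hand, so the search says nothing of them. Motifs were searched as letters and can overlap, members share ancestry, and a match is a description of these windows and not a binding site.

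Of 11 female-biased P450s, 0 passed edgeR's test between Old and Adult. At an unadjusted p under 0.05 there were 3 (27.7% of all genes), and 2 passed by DESeq2 (14.1%). These P450s had 5 log2 fold changes above 0 and 6 below. Their summed level was 2305 to 2973 CPM in Adult and 2382 to 5303 CPM in O1 to O4, and 338 CPM in O5. Cyp2d9, a male-biased steroid 16-alpha-hydroxylase, was at 25.2, 47.2, 34.5, 64.4 and 19.4 CPM in Adult, at 6.03, 1.76, 9.73, 5.35 and 477 CPM in Old and at 1.65 to 5.99 CPM in PDX mice. O5 alone was far above the Adult mice and the other older mice all lay below them. The log2 fold change between Old and Adult was 1.39 ± 1.14 (edgeR adjusted p = 0.453) and without O5 it was -2.74 (edgeR adjusted p = 0.00902). Of 5 female-biased genes outside the P450s, A1bg rose (log2 fold change 4.74 ± 1.33, edgeR adjusted p = 0.0453), from 57.3 to 264 CPM in Adult to 727 to 9745 CPM in O1 to O4, and was at 0.397 CPM in O5. Of 4 tested male-biased genes, Slco1a1, a transporter of organic anions, fell (log2 fold change -5.07 ± 0.79, edgeR adjusted p = 0.00569). Over all genes 4.71% rose and 2.07% fell. Unlike Cyp2d9, the male-biased genes outside the P450s were not high in O5. Their summed level was 33.4 to 68.2 CPM in Adult mice and 1.19 CPM in O5, the lowest of all mice.

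In family 4, 2 members rose and 2 fell. Cyp4f15, a hydroxylase of leukotrienes and fatty acids, was at 169, 206, 188, 192 and 192 CPM in Adult and at 88.3, 55.2, 153, 94.2 and 71.1 CPM in Old mice (log2 fold change -1.04 ± 0.22, edgeR adjusted p = 0.0219). Cyp4v3, a fatty acid hydroxylase, was at 277 to 347 CPM in Adult and at 133, 120, 243, 193 and 94.5 CPM in Old mice (log2 fold change -0.96 ± 0.23, edgeR adjusted p = 0.0276). Neither pair of groups overlapped, and O3 was the nearest to the Adult mice in both.

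Cyp4f18, which inactivates leukotriene B4 in neutrophils and other leukocytes, was at 1.29, 0.599, 1.05, 1.32 and 0.545 CPM in Adult and at 2.63, 28.5, 11.7, 1.89 and 1.73 CPM in Old mice. Every Old mouse was higher, and O2 and O3 carried most of the mean (log2 fold change 3.28 ± 0.72, edgeR adjusted p = 0.0233; 2.51 without O2 and O5, edgeR adjusted p = 0.0134). Without O2 alone the log2 fold change was 2.23 (edgeR adjusted p = 0.0372), and without 1 Adult mouse the edgeR adjusted p rose to 0.0530 to 0.0646. Some leukocyte markers also rose, where 4.71% of all genes did. Of 10 myeloid markers 5 rose (Itgam, S100a8, S100a9, Mpo and Elane) and their sum was 334 to 475 CPM in Adult and 246 to 3058 CPM in Old mice, highest in O2, with only Elane at 0, in A1. Of 10 lymphocyte markers 4 rose (Cd79a, Cd79b, Ms4a1 and Ighm), and no marker was at 0. The sum of the 10 was 29.4 to 55.6 CPM in Adult and 176 to 877 CPM in Old mice. It was highest in O2 (877 CPM), with O3 (312 CPM) close to O1 (280 CPM). The part of leukocytes in this result was not tested.

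Cyp4f16 was at 4.10 to 4.96 CPM in Adult and at 7.18, 20.7, 6.07, 7.5 and 7.03 CPM in Old mice, with no overlap and O2 far above the other Old mice (log2 fold change 1.10 ± 0.30, edgeR adjusted p = 0.0415). Without O2 and O5 the log2 fold change was 0.62 (edgeR adjusted p = 0.0419). The Cyp4a genes, omega-hydroxylases of fatty acids that PPAR alpha switches on, did not pass. Of 4 tested members 0 passed edgeR's test, 1 had an unadjusted p under 0.05 (27.7% of all genes) and 0 passed by DESeq2 (14.1%). Cyp4a14 was at 1300, 1000, 1157, 1073 and 859 CPM in Adult and at 282, 138, 947, 667 and 802 CPM in Old mice, so the groups overlapped through O3 (log2 fold change -0.93 ± 0.45, edgeR adjusted p = 0.19). Cyp4a10 was at 467 to 604 CPM in Adult and at 95.2 to 526 CPM in Old mice (log2 fold change -0.77 ± 0.50, edgeR adjusted p = 0.341).

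Of the other members named for the highest level of their subfamily, none passed with all 15 mice. Cyp4f14, a leukotriene hydroxylase, was at 344 to 380 CPM in Adult and at 291, 180, 329, 320 and 18.1 CPM in Old mice (log2 fold change -0.66 ± 0.46, edgeR adjusted p = 0.373). Its Old mice were all lower, O5 by far the most. Cyp2r1, the vitamin D 25-hydroxylase, was at 13.5 to 16.0 CPM in Adult and at 16.0, 7.75, 14.9, 14.9 and 5.48 CPM in Old mice, so that only O2 and O5 lay below the Adult range. Cyp4b1 was at 20.3 to 28.8 CPM in Adult and 15.3 to 28.2 CPM in Old mice, and Cyp2u1, a hydroxylase of long-chain fatty acids, at 1.82 to 3.96 and 0.819 to 4.12 CPM. Cyp2g1, known from olfactory mucosa, was at 4.56 to 6.69 CPM in Adult, 6.96 to 21.1 CPM in O1 to O4 and 0.289 CPM in O5. It passed without O5 (log2 fold change 1.06, edgeR adjusted p = 0.0381). The 29 tested members not under that naming rule ranged from Cyp3a57 (0.137 CPM in Adult) to Cyp2c29 (1706 CPM in Adult) and had edgeR adjusted p-values of 0.0501 or more between Old and Adult.

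Of 15 genes of electron transfer and heme supply, 0 rose and 2 fell between Old and Adult, where 4.71% of all genes rose and 2.07% fell: Pgrmc1, a heme-binding partner of P450s (log2 fold change -0.74 ± 0.20, edgeR adjusted p = 0.0408), and Fech, the last enzyme of heme synthesis (-0.46 ± 0.12, edgeR adjusted p = 0.0393). Por had a log2 fold change of 0.53 ± 0.47 (edgeR adjusted p = 0.49) and Alas1 of -0.13 ± 0.48 (edgeR adjusted p = 0.889). Of 18 tested receptors and other regulators, 0 passed edgeR's test. At an unadjusted p under 0.05 there were 8 (27.7% of all genes), and 4 passed by DESeq2 (14.1%). PXR (Nr1i2) had a log2 fold change of -0.67 ± 0.19 (edgeR adjusted p = 0.0526) and CAR (Nr1i3) of -0.72 ± 0.26 (edgeR adjusted p = 0.0876). PPAR alpha (Ppara) and HNF4 alpha (Hnf4a) had values of -0.21 ± 0.32 and -0.07 ± 0.28 (edgeR adjusted p = 0.703 and 0.90).

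Targets of these receptors outside the P450s fell in part. Between Old and Adult 4.71% of all genes rose and 2.07% fell, and the counts here stand beside those shares. Of 9 CAR and PXR targets, 1 rose (Gadd45b) and 3 fell (Ces2a, Abcc2 and Gstm1, with log2 fold changes of -1.05, -0.63 and -1.17). Of the 9 tested CAR and PXR-regulated P450s 0 passed edgeR's test. Among them 4 had an unadjusted p under 0.05 (27.7% of all genes) and 0 passed by DESeq2 (14.1%). These 9 had a summed level of 7228 ± 399 CPM in Adult and 3192 ± 1168 CPM in Old livers. Of 14 PPAR alpha targets, 3 fell: Ehhadh and Acaa1b, enzymes of peroxisomal fatty acid oxidation (log2 fold changes -1.32 and -2.39), and the carnitine carrier Slc25a20 (-0.54). Acute phase genes were higher in the same livers: 5 of 10 rose between Old and Adult (Saa3, Orm2, Lcn2, Hp and Fgl1), and their summed level was 4032 to 4618 CPM in Adult, 6500 to 25439 CPM in Old and 10019 to 41172 CPM in PDX mice, highest in P2 and O5, with no gene at 0. Their part in the lower P450 levels was not tested.

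No change of a P450 with protectin DX was detectable at this depth and spread. Between PDX and Old livers 0 of 59 members passed edgeR's test, as did 0% of all genes, and 3 members had an unadjusted p under 0.05, where 5.28% of all genes did. DESeq2 called 0 members. No member had groups that did not overlap, against 0.342% of all genes. The 3 members were Cyp2d9 (log2 fold change -4.91 ± 1.34), Cyp2s1 (-0.88 ± 0.37) and Cyp2c54 (-1.86 ± 0.80), each with an edgeR adjusted p of 0.793. The Cyp2d9 difference rested on O5, and without it the log2 fold change was -0.78. Cyp2s1, a low-level enzyme of epithelia, was at 0.702 to 1.75 CPM in Old and 0.401 to 1.10 CPM in PDX mice. Cyp2c54 was at 40.7 to 355 CPM in Old and at 4.5, 5.58, 17.7, 28.4 and 129 CPM in PDX mice, and the groups overlapped through P5. For Cyp2e1 the log2 fold change between PDX and Old was -0.09 ± 0.30 and for Cyp1a2 0.09 ± 0.46.

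**Figure D5:**
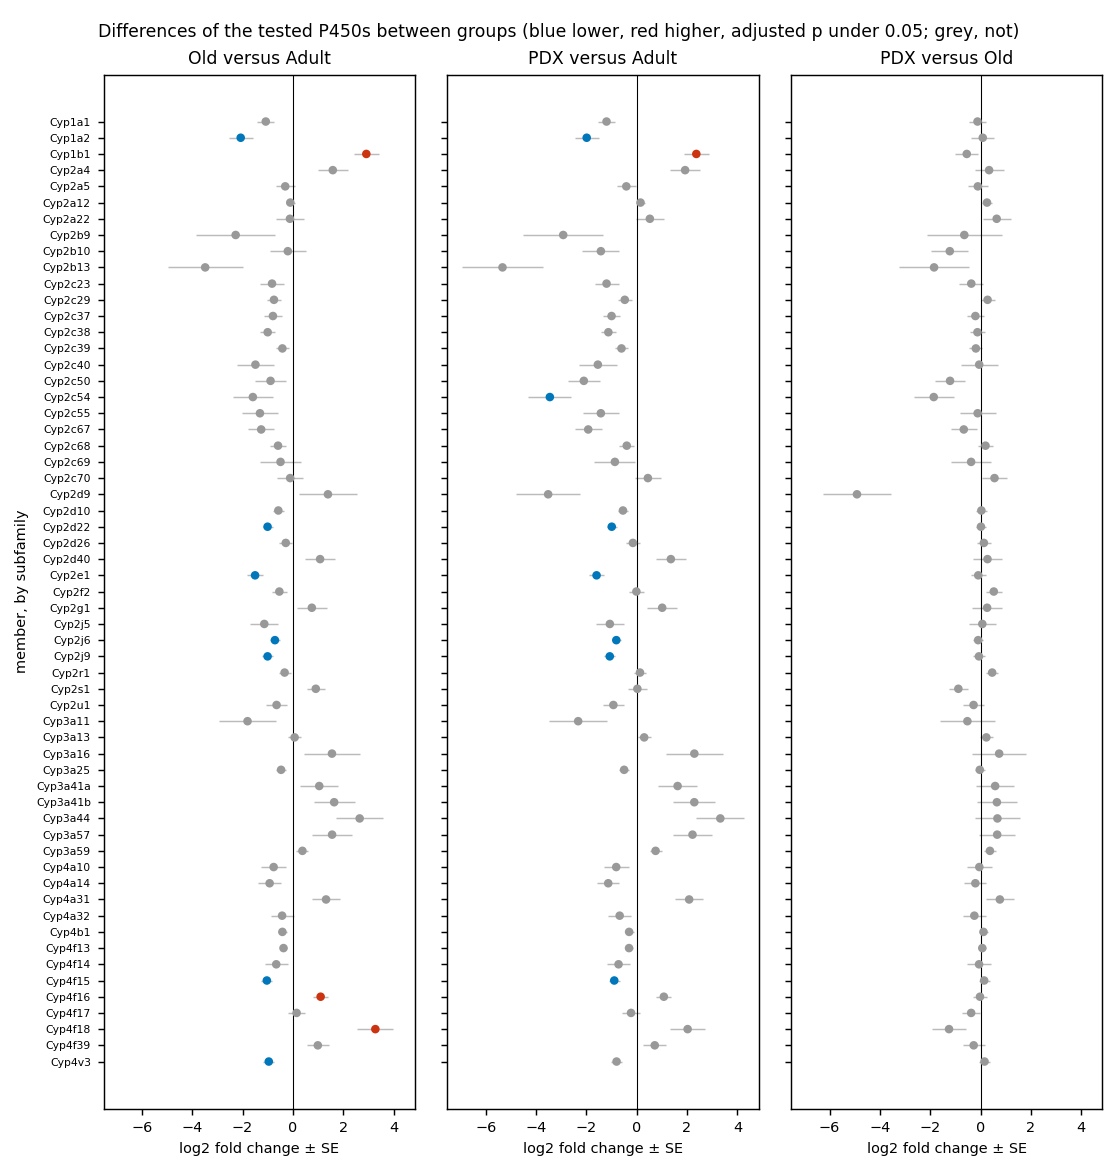
Log2 fold change of each of the 59 tested members (rows, by subfamily) with its SE between Old and Adult, PDX and Adult, and PDX and Old (3 panels on 1 scale); members with an edgeR adjusted p under 0.05 are blue (lower) or red (higher) and all others grey. Coloured points number 10, 8 and 0, and the widest bars belong to Cyp2b9, Cyp2b13, Cyp2d9, Cyp3a11 and Cyp3a16.

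Between PDX and Adult livers, 8 of 59 members passed: Cyp1b1 rose and Cyp1a2, Cyp2c54, Cyp2d22, Cyp2e1, Cyp2j6, Cyp2j9 and Cyp4f15 fell. Over all genes 2.66% passed, 1.76% as higher and 0.898% as lower. Groups did not overlap for 33 members, 10 higher and 23 lower in PDX mice, where 10.5% and 9.34% of all genes did so, 19.9% in all. This comparison shares the Adult mice with that of Old and Adult, so the values stand side by side and are not independent. Cyp1a2 was at 222, 305, 213, 234 and 295 CPM in PDX mice (log2 fold change -1.99 ± 0.48, edgeR adjusted p = 0.0375), with no mouse as low as O5. Cyp2e1 was at 2236, 1326, 2368, 1798 and 2906 CPM (-1.60 ± 0.31, edgeR adjusted p = 0.0139) and Cyp2c54 had the lowest mean relative to Adult of the 8 that passed (10.95-fold lower mean; -3.45 ± 0.85, edgeR adjusted p = 0.0434). Cyp1b1 was at 2.13, 2.77, 3.60, 1.82 and 2.00 CPM in PDX mice (2.37 ± 0.50, edgeR adjusted p = 0.020).

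The count of 8 depended on which mice entered the fit, in which all groups share 1 estimate of spread. Without O2 and O5 it was 40 of 61 (13 higher and 27 lower), where 24.6% of all genes passed, with the 8 above among them. A fit of the 10 Adult and PDX mice alone gave 40 of 59, where 29.6% of all genes passed. Of the 8, Cyp2e1 passed whichever mouse was left out, and the other 7 each lost their call without at least 1 mouse. Over the fits without 1 mouse, 1.03% to 11.1% of all genes passed. Among the 33 members without overlap were Cyp2a4, Cyp2d40, Cyp2g1, Cyp3a16, Cyp3a41a, Cyp3a41b and Cyp3a44, all higher in every PDX mouse than in every Adult mouse (Cyp2d40 was named after its values were seen). In Old mice O5 was the lowest of its group for each of these 7. Of the regulators, Cux2, a female-biased repressor, rose between PDX and Adult (log2 fold change 1.32, edgeR adjusted p = 0.0216) and CAR (Nr1i3) fell (-1.04, edgeR adjusted p = 0.0432). Of the 14 PPAR alpha targets Acot1, Ehhadh and Slc25a20 fell, and of the 9 CAR and PXR targets Abcc2. In this comparison 1.76% of all genes rose and 0.898% fell.

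Members varied more between Old mice than other genes did. The SD of log2 CPM between mice had a median over the 59 members of 0.20 in Adult (0.20 over all genes tested), 1.02 in Old (0.53) and 0.45 in PDX livers (0.23), and 0.43 in Old without O2 and O5 (0.28). O5 was below all 14 other mice for 25 of 59 members and above them for 6, where 28.3% and 25.9% of all genes tested were so. O2 was below all 14 others for 15 members, against 12.4% of all genes, and above them for 2, against 20.1%. Of the 7 members that fell, O3 was the highest Old mouse for 6 and P5 the highest PDX mouse for 6. O3 and P5 were also the highest of their groups for Cyp2b9, Cyp2b13 and Cyp2c54. These counts are a description of members that share regulators and of mice that were not grouped by any label.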

How the data were processed

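Poly(A) RNA of each liver was made into a directional library and sequenced as paired 50-base reads. The authors checked reads with FastQC 0.11.7, aligned them to mm10 with STAR 2.6.0c and counted uniquely mapped, properly paired fragments on the same strand as each Ensembl gene with featureCounts (Subread 1.6.2), leaving out mitochondrial genes. The deposited counts per gene were used here as deposited. The authors also deposited variance-stabilised values on a log2 scale (DESeq2 1.23.10), which were not used. Unique mapping loses or splits reads of close paralogs, which lowers or blurs their counts.

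Gene symbols, positions and exon lengths came from GENCODE M21 (GRCm38) for 55190 of 55450 IDs. Samples were grouped by their labels, with 1 mouse per sample. Genes kept by filterByExpr (minimum count 10, minimum total count 15; 15808 genes) were scaled by TMM and fitted with edgeR 4.0.16 in R 4.3.3 by the quasi-likelihood method, with all 15 mice and 1 coefficient per group. The p-values were adjusted by Benjamini-Hochberg over these genes and called at 0.05, and SE is the log2 fold change divided by the square root of F. CPM are counts scaled to the TMM library size, and RPKM are CPM per kilobase of exon. The fit was tested on simulated data. Library totals of 22424383 to 36070835 set the counting error, which is small beside the spread between mice for all but the scarcest members.

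Named were all members that passed in any comparison, the member of highest mean RPKM of each tested subfamily, the 3 members of smallest p between PDX and Old, and 11 fixed genes; partner, regulator and target genes were named where they passed, with 8 fixed ones. The members, lists and rules were chosen with earlier results of these data known. Alternatives were DESeq2 1.42.0, RLE scaling, no filter, a fit of 10 mice, a replicate block, leaving out each mouse, and leaving out O2 and O5. Same-numbered mice are different animals. Promoter sequences are from RefSeq (GRCm38.p6) and were aligned with Biopython 1.88.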

Additional observations from a re-analysis of the deposited data

Results flagged for a closer look

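In groups of 5 mice, a mouse was singled out where its gap to the nearest other mouse exceeded 0.71 of the group's range of log2 CPM (Dixon's critical value). Of 117 checks 11 met this, and 8 of the 11 were O5. Some of the genes checked were chosen after their values were seen, and members share regulators. The number is therefore a description and is not set against a chance rate. O5 was far below the other Old mice for Cyp2c40 (0.144 CPM), Cyp2c70 (57.6 CPM), Cyp2g1 (0.289 CPM), Cyp4f14 (18.1 CPM), Cyp3a16 (0.0721 CPM), Cyp3a41a (2.42 CPM), Cyp3a41b (0.433 CPM) and Cyp3a44 (0.794 CPM). Most reads of the Cyp3a41 pair cannot be told apart, so these are not taken as independent. O2 was above the other Old mice for Cyp4f16 (20.7 CPM). Among Adult mice A4 was above the others for Cyp2a5 (1284 CPM) and A5 below them for Cyp2f2 (774 CPM). Why these mice stood apart was not tested.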

How the results depend on the processing

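Between Old and Adult 10 members passed, and 6.78% of all genes. With DESeq2 14 members passed (14.1% of all genes), with RLE scaling 11 (6.9%) and without the count filter 8 (2.26%). The number was 2 in a fit of the 10 mice compared (0.698%) and 16 without O2 and O5 (7.12%). When 1 mouse was left out it was 3 to 18. It was highest without O5 (13.2%) and lowest without A2, A3, A4 or A5 (0.97% to 1.28%). Between PDX and Adult 8 members passed, and 2.66% of all genes. The number was 20 with DESeq2 (7.68% of all genes), 40 in a fit of 10 mice (29.6%) and 40 without O2 and O5 (24.6%). When 1 mouse was left out it was 1 to 27, lowest without P2 (1.07%) and highest without O5 (10.9%). Between PDX and Old it was 0 under every alternative (0 to 0 when 1 mouse was left out). Only Cyp1b1 and Cyp2d22 (Old against Adult) and Cyp2e1 (PDX against Adult) passed whichever mouse was left out. With a replicate block the number was 5 between Old and Adult (1.5% of all genes), where Cyp1a2, Cyp2j6, Cyp2j9, Cyp4f16 and Cyp4f18 were lost. It was 7 between PDX and Adult (2.0%), where Cyp1a2 and Cyp4f15 were lost and Cyp2c50 gained. Between PDX and Old it was 0. The replicate numbers are shared by different animals. Deviations of same-numbered mice had mean correlations of -0.168, 0.031 and 0.092 (Old with Adult, PDX with Adult, PDX with Old). Outside the 10 genes with the most counts the shares were 3.36%, 2.15% and 2.28%, and leaving out 1 mouse gave 2.63% to 2.72% (Adult), 1.52% to 1.74% (Old) and 1.6% to 1.78% (PDX).

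Log2 fold changes between Old and Adult that changed sign were Cyp2a5 (-0.72 to 0.052 when 1 mouse was left out, above 0 without A4), Cyp2b10 (-1.41 to 0.11, above 0 without O2 or O4), Cyp2c70 (-0.39 to 0.19, above 0 without O5) and Cyp2d9 (-2.74 to 1.75, below 0 without O5). Without O2 and O5, Cyp2c70 (0.36), Cyp2d26 (0.11), Cyp2r1 (0.052) and Cyp2d9 (-2.42) also changed sign, as did Cyp2d9 with the replicate block (-1.75). The causes were not tested. Over all genes the median log2 fold change between Old and Adult was 0.07, and 0.13 with DESeq2. The 5 mice per group, and the spread of Old mice, limit which differences pass, and members under about 1 CPM rest on few reads.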
